A study of Mus musculus with 18 samples.

Results

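The respiratory chain of the inner mitochondrial membrane is built largely from proteins encoded in the nucleus, and the genes described here are those subunits together with the assembly factors that share their names. Members were chosen by symbol: every gene whose symbol starts with Ndufa, Ndufb, Ndufc, Ndufs, Ndufv, Sdh, Uqcr, Cox4, Cox5, Cox6, Cox7 or Cox8 and that a probe set names alone. This gave 75 members of 22180 genes, read by 81 probe sets, of which the brightest on average was kept for each gene. By complex they were 6 core and 26 accessory subunits and 8 assembly factors of complex I, 4 subunits and 4 assembly factors of complex II, 7 subunits and 1 pseudogene (Uqcrh-ps1) of complex III, and 10 subunits, 8 tissue-restricted isoforms and the supercomplex factor Cox7a2l of complex IV. The 12 assembly factors and the pseudogene are not subunits of the chain. Counts are given over all members, with the 53 subunits of complexes I to IV (52 tested) given beside them. The complex III subunit Cyc1 falls outside these symbols and is read in a related list instead. Ndufa4, named as a complex I gene, encodes a protein now assigned to complex IV and is counted there. Of the 75 members, 70 were bright enough to be tested, and the other 5 were Ndufs5, Uqcrh-ps1, Cox7b2, Cox8b and Cox8c.

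RNA was measured on expression arrays in 2 kinds of mouse bone marrow cell after 24 h in culture. The leukemia cells were acute myeloid leukemia (AML) cells with the MLL-AF9 fusion oncogene, sorted by GFP from mice with leukemia. The normal cells were LSK cells, which lack lineage markers, carry Kit and Sca1 and include the blood stem cells. The labels give 4F mice as the source of both, in which doxycycline (Dox) switches on Oct4, Sox2, Klf4 and c-Myc, and the control cells carry the same transgenes without induction. AML Control and LSK Control cells were left untreated, AML Dox and LSK Dox cells were given Dox to induce the 4 factors, and AML Compound and LSK Compound cells received a mix named VC6T: VPA, which inhibits histone deacetylases, CHIR, which inhibits the kinase GSK3, 616452, which blocks the TGF-beta receptor kinase, and TCP, which inhibits the demethylase LSD1. The sources used here give no strain, age or sex, and describe the repeats as biological without naming separate animals or cultures. The p-values therefore reflect only how far these arrays spread, part of which may be technical. Each group had 3 arrays, and LSK Compound replicate 1 was left out, leaving 17 arrays and 2 for LSK Compound.

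Complex I takes electrons from NADH, complex II takes them from succinate, complex III passes them to cytochrome c, and complex IV hands them to oxygen, while complexes I, III and IV pump protons that drive ATP synthase. Each complex except complex II joins nuclear-encoded subunits with a few that mitochondrial DNA encodes, and assembly factors help build it without staying in it. Quiescent blood stem cells are known for relying little on respiration, whereas many leukemia cells depend on it.

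Across all probe sets, the 17 arrays correlated at 0.979 to 0.989 within groups and 0.904 to 0.979 between them, whereas LSK Compound replicate 1 correlated with them at 0.638 to 0.672 and read 54 of the 75 members below all other arrays. Hoxa9, an MLL-AF9 target, read 7.63 to 9.16 on AML arrays and 5.14 to 5.93 on LSK arrays, and the progenitor receptor Flt3 2.42 to 3.64 and 5.42 to 7.44. Hoxa10 and Hlf also separated the AML from the LSK arrays. Other genes checked with them did not: Meis1, Elane and Mecom overlapped between the cell types. Mecom was higher in AML Control than in LSK Control. Procr was higher in LSK Dox and LSK Compound than in LSK Control. Kit, which the LSK label names, was present on every LSK array, though it read as high in AML Compound (7.66 to 7.83) as in LSK Control (7.66 to 7.76). For Sca1, the other marker LSK cells carry, no probe set named its gene Ly6a alone. Of 2 markers the label does not name, Cd34 was present on every LSK array, but it was also well above background in AML Control and AML Compound. The other, Slamf1, was at background on the LSK Control and LSK Dox arrays. Erythroid (Klf1, Gata1, Epor), B cell (Cd79a, Ms4a1) and T cell (Cd3e, Cd3g) markers read at most 3.59 on all 17 arrays, and the NK cell marker Nkg7 3.41 to 5.84. The macrophage markers moved with treatment: the log2 of the summed level of 4 genes (Adgre1, Csf1r, Cd68, Mrc1) was 7.62 to 7.69 in AML Control, 6.04 to 6.24 in AML Dox and 10.53 to 10.79 in AML Compound, and 8.82 to 8.98, 9.05 to 9.25 and 9.95 to 10.08 in the LSK groups in the same order. Of the 4 inducible factors, only Klf4 was clearly higher in both cell types under Dox, at 9.06 to 9.21 against 3.12 to 3.39 in AML cells and 8.15 to 8.30 against 3.72 to 3.95 in LSK cells. Sox2 and Pou5f1 were higher in AML Dox (3.60 to 4.56 against 2.58 to 2.89, and 3.30 to 3.73 against 2.77 to 2.99) and overlapped the controls in LSK Dox, near background. Myc was lower in both (4.16 to 4.82 against 8.63 to 8.70 in AML, 8.66 to 8.89 against 9.19 to 9.41 in LSK), so these probe sets do not show all 4 factors induced. In RNA from mixed cells, fewer cells of a type and less RNA per cell cannot be told apart.

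In AML cells under Dox the members were more often lower than higher, with 5 of 6 core subunits of complex I down, while 7 members rose. Values are log2 expression, so a difference of 1 is a doubling. Of 70 members tested with limma against AML Control (adjusted p under 0.05), 36 fell and 7 rose. That is 51.4% lower, against 25.6% lower and 23.0% higher among all 16337 genes tested (48.6% in either direction). Of the 52 tested subunits alone, 28 fell and 5 rose. The median change was -0.31 over the members and -0.01 over all genes. Arrays without overlap were common: all Dox arrays were below all controls in 42 of 70 members and 29.4% of all genes tested. They were above in 10 members and 26.3% of all genes. Among brighter genes only (above the 60th percentile of an array), 57.6% of 66 members and 36.6% of 11463 genes were lower. With LSK Compound replicate 1 kept in the fit, the counts were 11 lower and 2 higher, against 13.3% lower and 12.3% higher of all genes. In the same AML Dox arrays the summed macrophage level was lower (above), with Adgre1 and Cd68 lower, Mrc1 higher and Csf1r overlapping, Cd34 read 3.17 to 3.86 against 8.63 to 8.74 in AML Control, and Itgam 9.06 to 9.19 against 6.04 to 6.25, and the part of these shifts in the results was not tested.

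**Figure D1:**
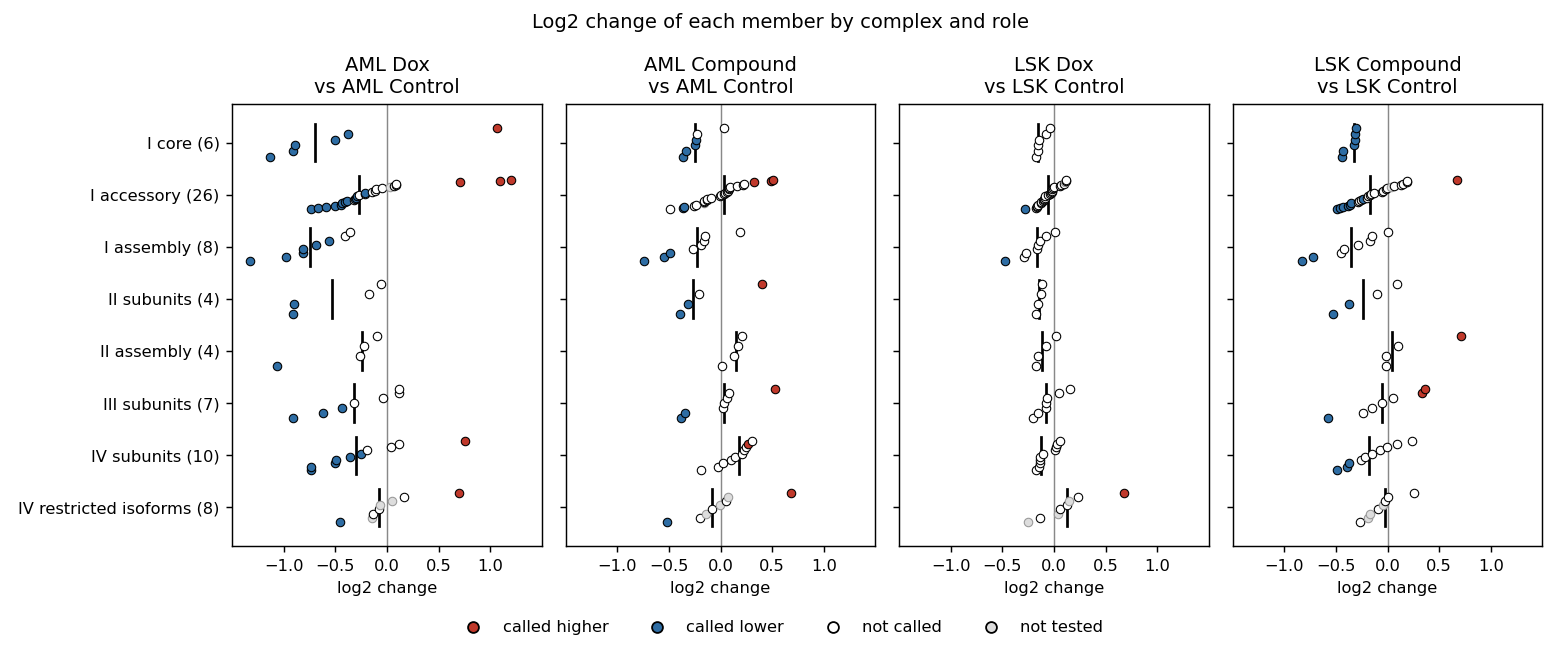
Each point is the log2 change of 1 member (horizontal axis) in AML Dox, AML Compound, LSK Dox and LSK Compound cells against the control of the same cell type. Rows are complexes and roles with their number of members, black bars are medians of tested members, red and blue points passed limma (adjusted p under 0.05), white points did not, grey points were not tested, and Cox7a2l and Uqcrh-ps1 are not drawn. Under Dox the AML points reach from -1.33 to 1.20, and the LSK points from -0.48 to 0.68.

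Among the core subunits of complex I, which carry the flavin and the iron-sulfur clusters, the deepest fall was in Ndufs8, an iron-sulfur subunit near the ubiquinone site. It read 8.42, 8.40 and 8.32 in AML Control and 7.32, 7.30 and 7.13 in AML Dox. The groups did not overlap, and the change was -1.13 (SE 0.09, limma adjusted p = 4.47e-09, n = 3). Ndufs7, which holds the last iron-sulfur cluster before ubiquinone, read 8.86, 8.89 and 8.85 in AML Control and 8.05, 7.88 and 7.94 in AML Dox. All 3 Dox arrays were below the controls, with a change of -0.91 (SE 0.09, limma adjusted p = 6.73e-08). Ndufs3 (-0.89), Ndufv1 (-0.50), which binds the flavin and NADH, and Ndufs1 (-0.38) also fell.

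The sixth core subunit moved the other way. Ndufv2, the partner of Ndufv1 in the NADH-oxidizing tip of the complex, read 7.70, 7.67 and 7.65 in AML Control and 8.64, 8.79 and 8.80 in AML Dox. Every Dox array was above every control, a rise of 1.07 or 2.10-fold (SE 0.09, limma adjusted p = 1.46e-08, n = 3). In the other 4 groups it read 7.22 to 7.80, below the AML Dox arrays.

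Of the 25 accessory subunits of complex I tested, 12 fell and 3 rose, with a median change of -0.27. Ndufb10 (-0.74), Ndufa9 (-0.67) and Ndufv3 (-0.59) had the largest falls. The 3 that rose were Ndufs4, Ndufa1 and Ndufa10. Ndufs4, whose loss in mice gives a model of Leigh syndrome, read 6.06, 5.91 and 5.91 in AML Control and 7.11, 7.02 and 7.03 in AML Dox, a rise of 1.09 (SE 0.08, limma adjusted p = 5.6e-09). The AML Dox arrays stood above all others, since the remaining groups read 5.90 to 6.27. The small membrane-arm subunit Ndufa1 read 6.23, 6.02 and 5.90 in AML Control and 7.15, 7.30 and 7.30 in AML Dox, a rise of 1.20 (SE 0.10, limma adjusted p = 1.55e-08), the largest of any member here. Ndufa10 rose from 8.49 ± 0.07 to 9.20 ± 0.03 (SD, n = 3), a change of 0.71.

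Complex I assembly factors fell in most cases, with 6 of 8 lower, 0 higher by limma and a median of -0.75. Ndufaf4 read 6.46 ± 0.11 in AML Control and 5.12 ± 0.11 in AML Dox (SD, n = 3). No array overlapped, and the change was -1.33 (SE 0.11, limma adjusted p = 6.77e-09), the largest fall of any member tested in AML cells under Dox. Ndufaf8 (-0.98), Ndufaf6 (-0.81), Ndufaf7 (-0.81), Ndufaf1 (-0.69) and Ndufaf3 (-0.56) fell too, while Ndufaf2 (-0.41) and Ndufaf5 (-0.36) did not pass.

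In complex II, which also works in the TCA cycle, the membrane anchors and the catalytic subunits gave different values, a contrast that was not itself tested. The anchor Sdhd read 8.08, 8.17 and 8.06 in AML Control and 7.09, 7.20 and 7.32 in AML Dox. These arrays did not overlap, with a change of -0.90 (SE 0.09, limma adjusted p = 8.12e-08), and the other anchor Sdhc changed by -0.91. The flavoprotein Sdha (-0.06) and the iron-sulfur subunit Sdhb (-0.17) did not pass. Sdhaf1, an assembly factor that serves Sdhb, read 4.65 ± 0.06 against 3.58 ± 0.25 (SD, n = 3), a change of -1.07 with no overlap. Its other probe set, near background at a mean of 2.83, differed by -0.46. The other 3 assembly factors of complex II had differences of -0.26 to -0.10 and did not pass.

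Of the 7 complex III subunits among the members, which leave out Cyc1, 3 fell and 0 rose by limma. Uqcrq, a small subunit bound to cytochrome b, read 4.79, 4.69 and 4.79 in AML Control and 3.88, 3.84 and 3.82 in AML Dox, a change of -0.91. The Dox arrays were the lowest of all 17. The core protein Uqcrc1 (-0.62) and the Rieske iron-sulfur protein Uqcrfs1 (-0.44) fell, while Uqcrc2 (0.12), Uqcrh (0.12), Uqcrb (-0.04) and Uqcr11 (-0.32) did not pass.

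Of 10 complex IV subunits 6 fell and 1 rose. Cox5a changed by -0.74 and Cox7b by -0.74, and Cox5b, Cox7c, Cox6b1 and Cox7a2 by -0.50 to -0.25. A second, dimmer probe set of Cox7b (mean 2.30, at background) differed by -0.03. Ndufa4, the subunit that rose, read 8.81, 8.92 and 8.91 in AML Control and 9.66, 9.61 and 9.64 in AML Dox. Its Dox arrays lay above all other arrays of the study used here, with a rise of 0.76 (SE 0.07, limma adjusted p = 8.74e-08). Cox7a2l, which links complexes III and IV into supercomplexes, rose by 0.45 (adjusted p = 0.0037, limma).

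Complex IV also has isoforms that are usually restricted to tissues such as heart, muscle, lung or testis, and most of the 8 measured here were dim. Cox7b2, Cox8b and Cox8c were not tested and read 1.40 to 2.63 on the 17 arrays, near the filter level of 2.32 to 2.41. Ndufa4l2 (1.99 to 2.67) and Cox7a1 (2.79 to 3.55) passed in no comparison against a control. Cox6b2, known as the testis form of Cox6b, was the exception under Dox in both cell types. It read 4.85, 5.03 and 4.77 in AML Control and 5.99, 5.23 and 5.51 in AML Dox, and 4.98 ± 0.02 (SD, n = 3) in LSK Control and 5.47, 5.78 and 5.72 in LSK Dox. All Dox arrays were above the controls of their cell type, with rises of 0.70 (SE 0.16, limma adjusted p = 0.00124) and 0.68 (SE 0.16, limma adjusted p = 0.00587). In AML Compound it fell, with 4.63, 4.20 and 4.26 and a change of -0.52 (limma adjusted p = 0.0189). Cox4i2, the lung form of Cox4, read 3.33, 3.35 and 3.21 in AML Control and 2.74, 3.10 and 2.68 in AML Dox and changed by -0.46. Cox6a2, the heart and muscle form, read 3.71, 3.66 and 3.86 in AML Control and 4.79, 4.47 and 4.02 in AML Compound and rose by 0.68.

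**Figure D2:**
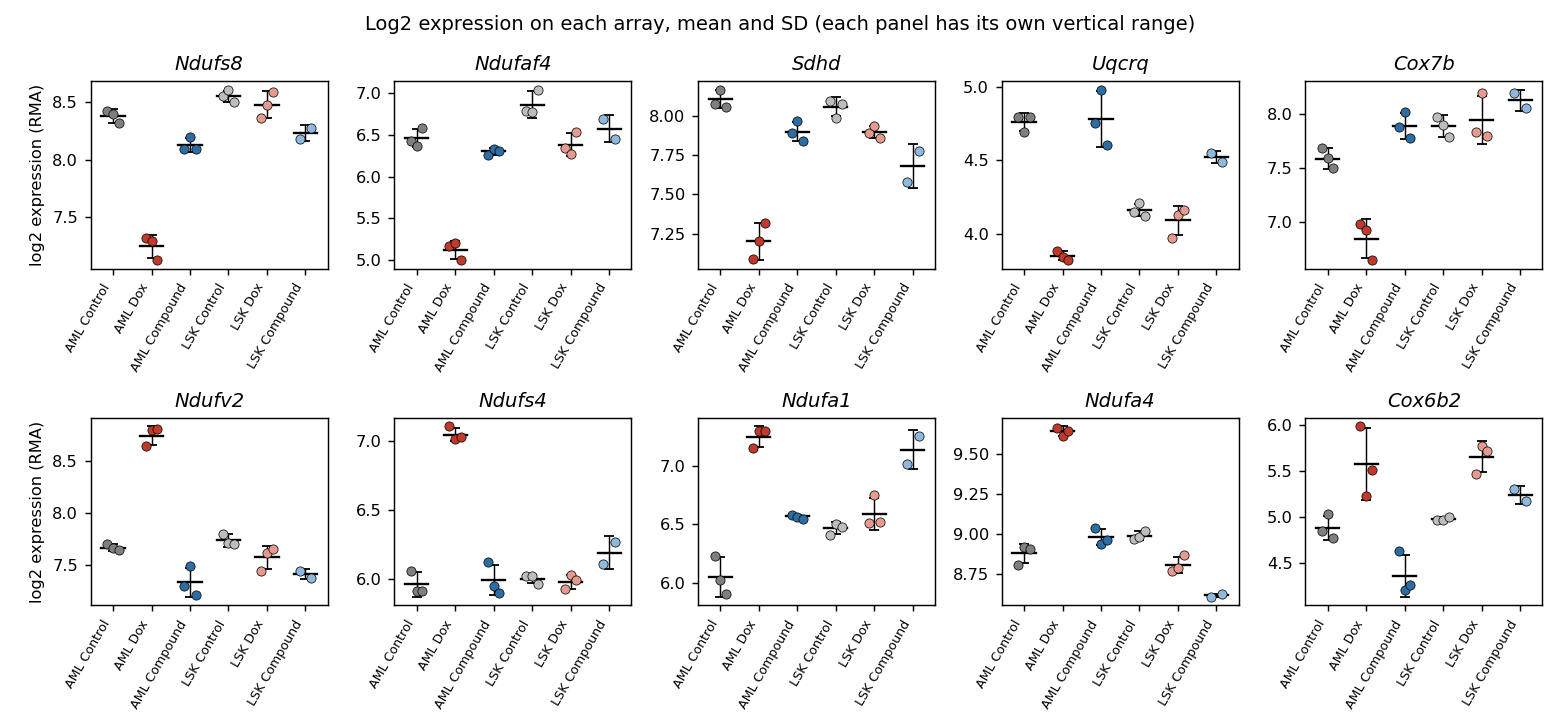
Log2 expression (vertical axis, its range differing between panels) on each array of the 6 groups (horizontal axis), with the mean as a bar and the SD as whiskers, LSK Compound having 2 arrays. The upper row shows members that fell in AML Dox and the lower row members that rose. Uqcrq, for example, reads 3.82 to 3.88 in AML Dox and 4.69 to 4.79 in AML Control, and Ndufa4 9.61 to 9.66 and 8.81 to 8.92.

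The start-site sequences of 2 members that rose and 2 that fell are given because all 4 serve complex I and changed in opposite directions. They are RefSeq windows (build GRCm38.p6) from 250 bases before to 50 after the start, 5′ to 3′ along the gene, and 61 of the 75 members had one. Capitals mark every match, on either strand, to 5 motifs: GCGC, any base and TGCGC in a row (bound by NRF1), CCGGAAGT (ETS factors such as GABPA), AAGATGGCG (YY1), the E-box CACGTG (MYC) and CCAAT (NFY). No motif contains another, though matches may overlap.
Ndufv2 (chr17:66101510-66101809, minus strand): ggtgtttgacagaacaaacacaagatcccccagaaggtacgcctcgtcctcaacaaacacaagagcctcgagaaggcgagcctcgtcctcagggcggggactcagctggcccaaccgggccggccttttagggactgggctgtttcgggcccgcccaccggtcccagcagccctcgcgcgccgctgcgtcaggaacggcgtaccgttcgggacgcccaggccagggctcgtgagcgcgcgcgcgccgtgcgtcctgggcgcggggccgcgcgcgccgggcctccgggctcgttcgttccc
Ndufs4 (chr13:114388045-114388344, minus strand): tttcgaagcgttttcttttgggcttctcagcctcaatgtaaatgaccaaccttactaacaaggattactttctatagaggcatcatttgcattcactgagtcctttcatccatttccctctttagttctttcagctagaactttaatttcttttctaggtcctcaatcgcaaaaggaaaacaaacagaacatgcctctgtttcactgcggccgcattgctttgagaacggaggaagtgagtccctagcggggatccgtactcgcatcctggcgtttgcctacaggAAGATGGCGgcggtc
Ndufs8 (chr19:3912725-3913024, minus strand): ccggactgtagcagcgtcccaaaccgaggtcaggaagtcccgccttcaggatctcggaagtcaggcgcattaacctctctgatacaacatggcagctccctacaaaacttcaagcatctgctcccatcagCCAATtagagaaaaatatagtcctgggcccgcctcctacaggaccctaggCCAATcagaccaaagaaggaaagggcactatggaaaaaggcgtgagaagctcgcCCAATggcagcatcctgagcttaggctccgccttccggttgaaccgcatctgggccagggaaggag
Ndufaf4 (chr4:24897833-24898132, plus strand): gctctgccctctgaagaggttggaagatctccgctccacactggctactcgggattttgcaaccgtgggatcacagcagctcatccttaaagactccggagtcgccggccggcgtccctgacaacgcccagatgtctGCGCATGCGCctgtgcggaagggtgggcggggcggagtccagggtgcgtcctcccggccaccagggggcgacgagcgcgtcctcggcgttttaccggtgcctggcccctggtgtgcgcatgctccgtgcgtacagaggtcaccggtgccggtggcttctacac

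The Ndufv2 window held 0 matches to the 5 motifs. Ndufs4 held the YY1 motif at position 36 after the start, Ndufs8 held CCAAT 3 times, and Ndufaf4 held the NRF1 motif at position -113. The NRF1 letters were present in 13 of 61 members (21.3%) and in 5.19% of 27025 genes with a window. Among the members, 0 of 7 that rose in AML Dox, 4 of 29 that fell (13.8%) and 8 of 22 that were not called (36.4%) held them. AAGATGGCG was in 5 of 61 members (8.20%) and 1.64% of genes, the ETS letters in 6.56% and 4.31%, CACGTG in 3.28% and 8.09%, and CCAAT in 36.1% and 41.1%. A match is a description of letters in this window, and whether any factor binds there was not measured.

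In LSK cells under Dox few members were called. Of the same 70 members 2 fell and 1 rose (1 of 52 subunits, lower), or 4.29% called, against 19.1% of all genes tested (9.93% lower, 9.21% higher). The median change was -0.09 over the members and -0.05 over all genes, and the median SE was 0.10. All Dox arrays were below all controls in 19 of 70 members and 21.5% of all genes tested, and above in 3 members and 14.6%. Among brighter genes 4.55% of 66 members and 29.3% of all were called. With LSK Compound replicate 1 kept, limma called 0 members, and 3.63% of all genes. Ndufaf4 read 6.78, 6.77 and 7.04 in LSK Control and 6.34, 6.27 and 6.53 in LSK Dox. The groups did not overlap, and it fell by 0.48 on the log2 scale (SE 0.11, limma adjusted p = 0.00343). Ndufa10 read 8.83, 8.88 and 8.77 in LSK Control and 8.44, 8.64 and 8.57 in LSK Dox, a change of -0.28 (limma adjusted p = 0.0209), opposite in sign to its change in AML cells. The riser was Cox6b2. All 6 core subunits of complex I lay between -0.18 and -0.04, with 0 called by limma. The granule gene Mpo read 6.65 to 7.26 in LSK Dox against 8.99 to 9.49 in LSK Control, and its part was not tested.

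The difference between the Dox responses was tested directly, as the change in AML minus the change in LSK cells. It was called lower for 23 members (32.9%) and higher for 5 (7.14%; 17 and 5 of the 52 subunits), against 21.5% and 18.6% of all genes (40.1% in either direction). The members lower in AML included Ndufs8 (-1.05, SE 0.12, limma adjusted p = 1.82e-06), Cox5a (-0.75), Uqcrq (-0.84) and Ndufs7 (-0.76). In Cox5a, 3 AML Control arrays read 8.22, 8.23 and 8.27 and AML Dox 7.52, 7.49 and 7.51, while LSK Control read 8.21, 8.20 and 8.42 and LSK Dox 8.29, 8.31 and 8.27. The LSK arrays overlapped and the AML arrays did not. The 5 members higher in AML were Ndufv2 (1.23, SE 0.13, limma adjusted p = 4.39e-07), Ndufs4 (1.11), Ndufa1 (1.08), Ndufa10 (0.98) and Ndufa4 (0.94). For Cox6b2 the difference was 0.02 (SE 0.22) and did not pass. With LSK Compound replicate 1 kept, 2 members were lower and 0 higher by limma. That setting also lowered the share of all genes called in AML Dox and in LSK Dox (above).

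**Figure D3:**
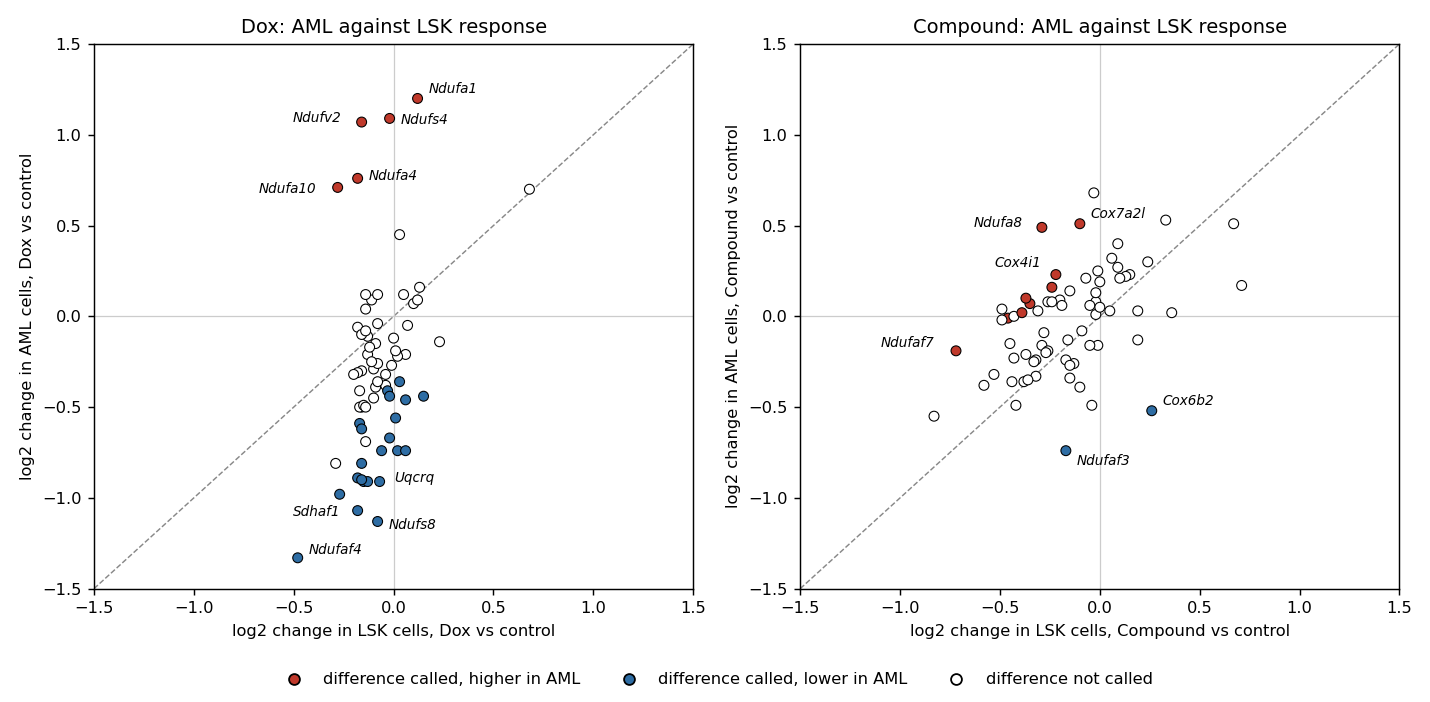
Log2 change in LSK cells (horizontal axis) against log2 change in AML cells (vertical axis) for each tested member, under Dox on the left and the compound mix on the right, with equal changes on the dashed line. Red and blue points are members whose difference in response passed limma. On the left 23 points are blue and 5 red, the red ones being Ndufa1, Ndufs4, Ndufv2, Ndufa4 and Ndufa10, and on the right 9 are red and 2 blue.

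The compound mix in AML cells moved members in both directions, at about the rate of all genes. Of 70, 14 fell (20.0%) and 8 rose (11.4%; 10 and 6 of the 52 subunits), against 19.2% and 12.8% of all genes tested (32.0% in either direction), and the median change was 0.01 (-0.03 over all genes). With quantile normalization the split was 12 lower and 14 higher, against 17.8% and 13.8% of all genes. With LSK Compound replicate 1 kept, 1 member fell and 0 rose. All Compound arrays were below all controls in 20 of 70 members and 24.6% of all genes tested, and above in 17 members and 17.1%. Ndufaf3, an assembly factor of complex I, had the largest fall. It read 6.63, 6.77 and 6.72 in AML Control and 5.99, 5.84 and 6.07 in AML Compound, with no overlap and a change of -0.74 (SE 0.09, limma adjusted p = 8.47e-06). Both core proteins of complex III fell: Uqcrc1 from 8.25, 8.35 and 8.33 to 7.89, 8.13 and 7.76 (-0.38), and Uqcrc2 from 8.49, 8.51 and 8.43 to 8.18, 8.19 and 8.06 (-0.34). Ndufa9 fell from 7.61, 7.66 and 7.56 to 7.27, 7.30 and 7.18 (-0.36).

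Among the 8 members that rose in AML Compound, the hinge protein Uqcrh of complex III read 6.26, 6.24 and 6.41 in AML Control and 6.70, 6.83 and 6.95 in AML Compound (0.53, SE 0.11, limma adjusted p = 0.000915). Ndufa1 rose by 0.51 and read 6.58, 6.56 and 6.55. Ndufa8, a complex I subunit of the intermembrane space side, read 7.92, 7.89 and 7.80 against 8.43, 8.52 and 8.12 (0.49), and Sdhb 6.43, 6.29 and 6.25 against 6.68, 6.78 and 6.72 (0.40). In each of the 4 the Compound arrays were all above the controls. Cox6a2, Cox7a2l, Ndufa7 and Cox8a were the other 4. All 4 macrophage markers were higher in the same samples than in AML Control, and the granule gene Mpo was lower (6.76 to 7.56 against 10.54 to 10.55). Their part in these results was not tested.

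In LSK cells under the compound mix 21 of 70 members fell and 4 rose (5.71%; 19 and 3 of the 52 subunits), against 20.0% and 14.2% of all genes tested (34.2% in either direction). The median change was -0.17 (-0.05 over all genes). Both Compound arrays were below all controls in 38 of 70 members and 31.7% of all genes tested, and above in 9 members and 21.6%. Among brighter genes 34.8% of 66 members and 29.6% of all were lower. All 6 core subunits of complex I fell, each by a similar small amount (-0.44 to -0.31), as did 7 of 25 accessory subunits. Sdha, the catalytic subunit of complex II, read 8.41, 8.43 and 8.39 in LSK Control and 7.83 and 7.93 in LSK Compound, a change of -0.53 (SE 0.09, limma adjusted p = 0.000131). Uqcrc1 read 8.10, 8.14 and 8.15 against 7.55 and 7.54 (-0.58). The assembly factors Ndufaf7 (6.30, 6.35 and 6.27 against 5.61 and 5.57, a change of -0.72) and Ndufaf8 (5.35, 5.21 and 5.45 against 4.78 and 4.24, a change of -0.83) had the largest falls, and in all of these genes the arrays did not overlap.

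The 4 members that rose in LSK Compound were Ndufa1, Sdhaf1, Uqcrq and Uqcrh. Ndufa1 read 6.41, 6.50 and 6.48 in LSK Control and 7.02 and 7.26 in LSK Compound (0.67, SE 0.11, limma adjusted p = 0.000143). Sdhaf1 read 4.91, 4.80 and 4.57 against 5.53 and 5.42 (0.71), Uqcrq 4.15, 4.21 and 4.12 against 4.55 and 4.49 (0.36), and Uqcrh 6.45, 6.67 and 6.75 against 7.04 and 6.86 (0.33). Both Compound arrays were above all controls in each. These values rest on 2 arrays: the called members numbered 15 without LSK Compound replicate 2 and 16 without replicate 3, and 9, all lower, with replicate 1 kept. The 2 arrays also differed from the other LSK arrays in sex-linked transcripts, with the X-inactivation RNA Xist at 7.32 and 7.35 against 9.28 to 9.77, and the Y-linked Eif2s3y at 5.20 and 5.47 against at most 2.04. Ndufa1, Cox7b (0.24) and Ndufb11 (-0.04) are X-linked. Of the macrophage markers Adgre1 (8.53 to 8.86) and Cd68 (9.16 to 9.17) were higher in these arrays than in LSK Control. Mrc1 (2.03 to 2.18 against 2.83 to 3.32) was lower, and so was Csf1r, which read 5.74 to 5.88 in LSK Control. Granule genes were lower by more: Mpo read 3.99 to 4.47 against 8.99 to 9.49, Ctsg 3.49 to 4.00 against 8.27 to 8.50, and Elane 4.92 to 5.13 against 9.26 to 9.40. The part of any of these in the results was not tested.

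Between the compound responses, the difference (AML minus LSK) was higher in AML for 9 members (12.9%) and lower for 2 (2.86%; 7 and 0 of the 52 subunits), against 8.69% and 8.37% of all genes tested (17.1% in either direction). Ndufa8 had the smallest p, with a difference of 0.78 (SE 0.15, limma adjusted p = 0.00152). It read 7.55, 7.54 and 7.70 in LSK Control and 7.44 and 7.18 in LSK Compound, below the controls, where AML Compound was above its own. Ndufa4 (0.47), which read 8.97, 8.98 and 9.02 in LSK Control and 8.61 and 8.63 in LSK Compound, Ndufa10 (0.45) and Cox5a (0.40) were also higher in AML. Ndufaf3 (-0.57, limma adjusted p = 0.00754) and Cox6b2 (-0.78, limma adjusted p = 0.0315) were lower. The count of 11 was 7 without AML Control replicate 2, and 5 without LSK Control replicate 2, LSK Compound replicate 2 or LSK Compound replicate 3, and 0 with LSK Compound replicate 1 kept.

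Dox and the compound mix were also compared with each other in each cell type, the control arrays not entering. In AML cells 39 members were lower under Dox than under the mix (55.7%) and 8 higher (11.4%; 31 and 7 of the 52 subunits), against 24.7% and 23.0% of all genes tested (47.7% in either direction). The differences included Cox7b (-1.04), Ndufaf4 (-1.17), Sdhaf1 (-1.24), Ndufv2 (1.40), Cox6b2 (1.21) and Ndufs4 (1.06). In LSK cells 10 were higher under Dox (14.3%) and 4 lower (5.71%; 8 and 3 of the 52 subunits). Of all genes tested 18% were higher and 14.3% lower (32.3% in either direction). The 14 members called became 8 without LSK Compound replicate 2. With LSK Compound replicate 1 kept, the members called in either direction numbered 8 in AML cells and 3 in LSK cells.

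Untreated AML and LSK cells differed in 19 of the 70 members. In AML Control 5 were higher (7.14%) and 14 lower (20.0%; 4 and 10 of the 52 subunits) than in LSK Control, against 15.4% and 14.2% of all genes tested (29.6% in either direction), and the median difference was -0.08. Keeping LSK Compound replicate 1 left 2, both higher. All AML Control arrays were below all LSK Control arrays in 29 of 70 members and 20.6% of all genes tested, and above in 12 members and 22.8%. Ndufaf3 read 6.63, 6.77 and 6.72 in AML Control and 5.96, 5.79 and 5.79 in LSK Control, a difference of 0.86 (SE 0.09, limma adjusted p = 1.25e-06). Uqcrq (4.79, 4.69 and 4.79 against 4.15, 4.21 and 4.12), Cox7a2 (7.57, 7.60 and 7.60 against 7.18, 7.16 and 7.05) and Cox7c (2.84, 3.53 and 3.20 against 2.36, 2.75 and 1.97) were higher in AML by 0.60, 0.46 and 0.83, with no overlap in these 3 genes. The LSK Control arrays of Cox7c read 1.97, 2.36 and 2.75, around the filter level of 2.32 to 2.41, so the size of its difference is uncertain. The largest lower values in AML were in Cox8a (9.33, 9.32 and 9.32 against 9.89, 10.03 and 9.92, a difference of -0.62) and Ndufa3 (8.61, 8.70 and 8.77 against 9.28, 9.32 and 9.28, a difference of -0.61). Ndufs7 (-0.36) and Ndufa10 (-0.33) were lower as well. Core subunits of complex I had differences of -0.36 to 0.17, with Ndufs7 alone past the threshold. The AML and LSK Control arrays also differed in Xist (2.38 to 2.63 against 9.28 to 9.56). The Y-linked Kdm5d, Eif2s3y and Uty were at background in both groups (at most 2.27). Of the X-linked members Ndufa1 differed by -0.42, while Cox7b (-0.30) and Ndufb11 (0.55) did not pass. The part of sex-linked differences in these results was not tested.

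Genes that work with the chain were read from lists, each count standing beside 25.6% lower and 23.0% higher among all genes in AML Dox. The 10 mitochondrially encoded subunits measured had changes of 0.00 to 0.18 (median 0.14), and 0 passed limma. They read 9.26 to 12.60 on the 17 arrays, whose brightest probe sets lay at 12.46 to 12.86, and whether changes in either direction are compressed there, or differ from those of the nuclear members, was not tested. Of 15 nuclear ATP synthase subunits 7 fell and 0 rose by limma, with a median of -0.29. Those with the smallest p were Atp5d (-0.70), Atp5b (-0.45), Atp5pb (-0.40) and Atp5k (-0.36). Of 26 electron carriers, coenzyme Q enzymes and assembly factors of complexes III and IV, 18 fell and 3 rose (median -0.76). This list also holds Cyc1, cytochrome c1 of complex III, a subunit whose symbol falls outside the selection rule. Cyc1 read 6.36 in AML Control and 5.11 in AML Dox (means, n = 3). Cytochrome c itself, Cycs, fell from 9.58 ± 0.05 to 7.86 ± 0.07 (SD, n = 3; -1.72, limma adjusted p = 9.15e-12), Lrpprc, which stabilizes mitochondrial mRNA, by 2.18, the coenzyme Q methyltransferase Coq5 by 1.67 and the complex IV insertase Cox18 by 1.84.

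The TCA cycle and pyruvate dehydrogenase list split in AML Dox, with 13 of 17 lower and 3 higher (median -0.71). Those higher were Pdha1 (1.41), Pcx (1.22) and Pdhb (1.07). Idh3a, a subunit of the NAD-dependent isocitrate dehydrogenase, fell by 2.30 on the log2 scale, Idh2 by 1.60, Suclg2 by 1.13 and fumarase Fh1 by 0.97. Of 15 regulators tested 12 fell and 1 rose (median -0.67). Myc fell from 8.67 ± 0.04 to 4.57 ± 0.36 (SD, n = 3; -4.10), the coactivator Pprc1 by 2.52 and the mitochondrial helicase Twnk by 1.35, while Hif1a, which shifts cells toward glycolysis, rose by 0.92.

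In LSK Dox, where 19.1% of all genes were called, limma called 0 of 10 mitochondrially encoded and 0 of 15 ATP synthase genes. Of the 26 carriers and assembly factors, a list that includes the complex III subunit Cyc1, 7 were lower and 1 higher (Cyc1 -0.41, Cox15 -0.53, Cox14 0.48, Coq4 -0.51). Of 17 TCA cycle genes 3 were lower (Fh1 -0.43, Idh2 -0.44, Idh3a -0.35). Of 15 regulators 3 were lower and 1 higher (Myc -0.60, Hif1a 0.37, Ppargc1b -0.60, Twnk -0.46). The shares of all genes under the compound mix were 19.2% lower and 12.8% higher in AML cells and 20.0% lower and 14.2% higher in LSK cells. With it the copper chaperone Cox17 rose in AML cells by 0.78 and in LSK cells by 1.41, and Hif1a by 2.64 and 2.63. Among the carriers and assembly factors 12 fell and 2 rose in AML Compound, with Sco1 at -1.04, and 11 fell and 4 rose in LSK Compound. Of the regulators 10 fell and 1 rose in AML cells and 12 fell and 1 rose in LSK cells, the mitochondrial polymerase Polg by 0.90 and 1.45 on the log2 scale. ATP synthase subunits were lower for 3 of 15 in AML Compound and 6 of 15 in LSK Compound, and TCA cycle genes for 8 and 7 of 17, with 1 higher in each. Of the mitochondrially encoded genes 1 rose in AML Compound (mt-Co3, 0.27) and 0 were called in LSK Compound by limma.

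**Figure D4:**
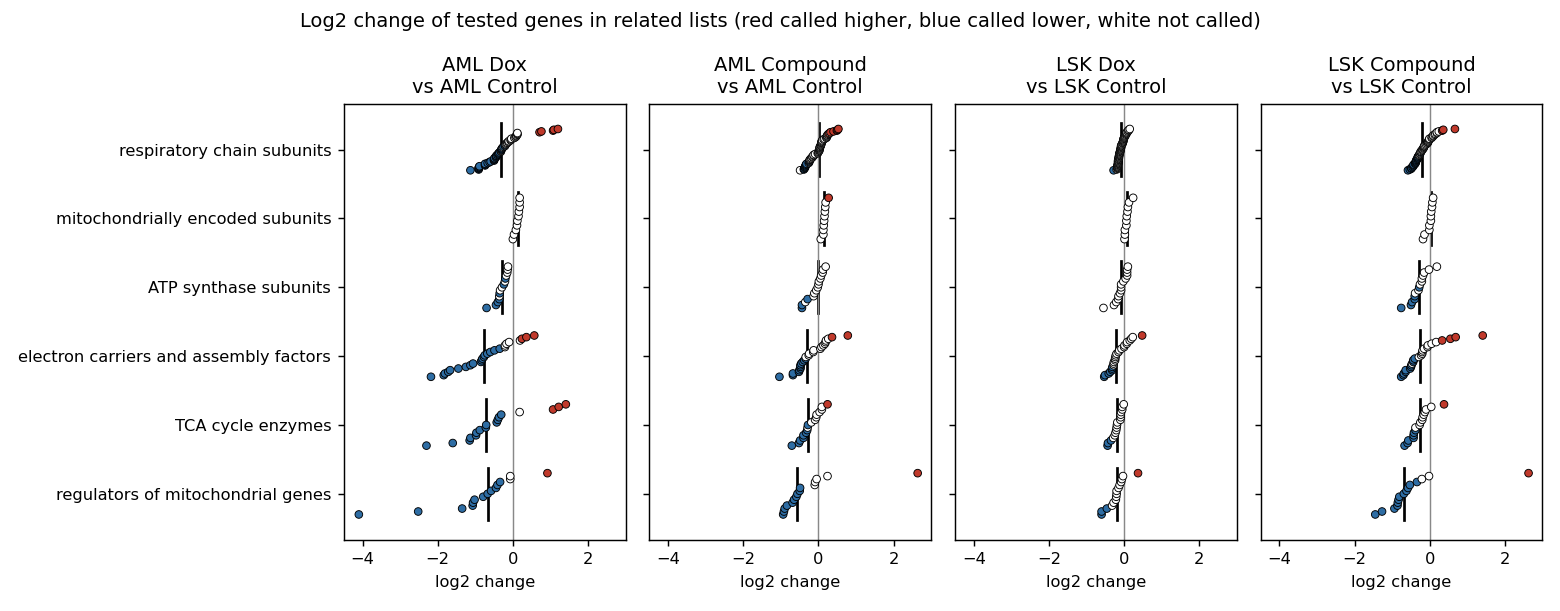
Log2 change (horizontal axis) of the tested genes of 6 lists in the 4 treatment comparisons, with the median of each list as a black bar. Respiratory chain subunits are the 52 tested subunits of complexes I to IV without assembly factors and restricted isoforms. In AML Dox the mitochondrially encoded genes lie between 0.00 and 0.18, while Myc, at -4.10, is the lowest point of the regulators.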

How the data were processed

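RNA from 6 groups of 3 samples was labelled with biotin by a whole-transcript kit and read on expression arrays, as the labels' protocols give it. The deposited values are log2 expression per probe set, which the authors computed with RMA, per the submitters' processing notes; RMA corrects background, equalizes arrays and combines probes. The sources used here do not give its version, the genome build or any later centring. Normalization between arrays hides a change shared by most genes. The values were used with no further scaling.

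Of 41345 probe sets, the platform annotation named 1 gene for 23521 and several for 1814, and 16010 were not listed. Only probe sets naming 1 gene were used, so 10 that name a gene of this family beside another stayed out. The brightest probe set on average over the 17 arrays stood for each of 22180 genes. Genes above the 40th percentile of an array on at least 3 arrays were tested (16337).

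Differences were fitted with limma 3.58.1 in R 4.3.3 on 17 arrays (1 mean per group, contrasts, eBayes, 11 residual degrees of freedom), with p-values adjusted by Benjamini-Hochberg across the 16337 genes in each of 9 comparisons and a threshold of 0.05. Treatments of a cell type share its control arrays. On simulated data for AML Dox against AML Control, 16337 genes with 200 changed, 94% of changes of 1 and 47% of changes of 0.5 on the log2 scale were called, with 5 false calls. Arrays have no depth, and precision is set by how many there are. The members and lists were chosen with earlier results of these data known.

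Every member was counted. Array values are given for up to 4 members with the smallest p in each direction in the 4 treatment comparisons, the baseline comparison and the 2 response differences, for the member of each complex with the largest change in AML Dox, and for the restricted isoforms. From each related list up to 4 genes with the smallest p are named, and the TCA cycle genes higher in AML Dox were added. Members named beyond this (Ndufs1, Ndufs3, Ndufv1, Ndufv3, Ndufb10, Ndufa7, Ndufb11, the remaining assembly factors, Sdhc, Uqcrfs1, Uqcrb, Uqcr11, Cox5b, Cox6b1, Cox7b and Cox7a2l) and the 5 promoter motifs were chosen after values were seen. Promoter windows are RefSeq's (GRCm38.p6). Mitochondrially encoded genes were matched through their older symbols. Same-numbered replicates of different groups correlated at -0.11 to 0.10 in their deviations from the group means (40 pairs, 1 over 0.1), so the numbers do not pair the samples.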

Additional observations from a re-analysis of the deposited data

Results flagged for a closer look

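The Dox response differed between AML and LSK cells in 28 of the 70 tested members, by the test of the difference itself (limma, adjusted p under 0.05). The share over all genes was 40.1%, so the count itself does not set the members apart. Among them were Ndufv2 (1.23), Ndufs4 (1.11), Ndufa4 (0.94) and Ndufa10 (0.98), higher in AML, and Ndufs8 (-1.05), Cox5a (-0.75), Uqcrq (-0.84) and Ndufs7 (-0.76), lower in AML. The compound response differed in 11 of 70 members by the same test, below the 17.1% of all genes, with Ndufa8 (0.78), Ndufa4 (0.47), Ndufa10 (0.45) and Cox5a (0.40) higher in AML and Ndufaf3 (-0.57) and Cox6b2 (-0.78) lower. All values are log2 changes in AML minus LSK cells. No group had the 4 arrays needed to test for a single outlying sample.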

How the results depend on the processing

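The array left out matters most, and not for the members alone. The share of all genes called also fell with it kept, as given above for AML Dox and LSK Dox. For the other comparisons that share is not given here, so their lower counts are not particular results about the members. With LSK Compound replicate 1 kept, the members called fell from 43 to 13 for AML Dox, from 22 to 1 for AML Compound, from 3 to 0 for LSK Dox, from 25 to 9 for LSK Compound, from 19 to 2 at baseline, from 28 to 2 and from 11 to 0 for the Dox and compound response differences, and from 47 to 8 and from 14 to 3 for Dox against the mix in AML and LSK cells. The median SE of a treatment effect on a member was then 0.314, against 0.104 without it (0.116 for LSK Compound). At 18 arrays the sign turned for Ndufa1 (-0.49), Uqcrh (-0.33) and Sdhaf1 (-0.13) in LSK Compound against control and for Ndufa1 (0.62) and Uqcrh (0.25) in LSK Dox against LSK Compound. With array quality weights on all 18 arrays, whose iteration stopped before its tolerance, the counts were 38 for LSK Compound, 18 for the compound response difference and 32 for LSK Dox against LSK Compound, and the other 6 stayed within 1.5 times. Leaving out 1 array at a time gave 39 to 42 members for AML Dox, 18 to 22 for AML Compound, 2 to 3 for LSK Dox, 15 to 20 for LSK Compound, 13 to 17 at baseline, 24 to 28 and 5 to 12 for the response differences, and 41 to 47 and 8 to 13 for Dox against the mix.

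With the replicate number as a block, though whether it pairs the samples is not known, the counts were 42, 22, 3, 23, 20, 26, 11, 45 and 14 in the order given first. The groups compared alone, median centring, quantile normalization, no filter, the 60th percentile filter, and the mean of a gene's probe sets each kept all 9 counts within 1.5 times. Leaving out the whole LSK Compound group, added after the data were seen, did so for the 6 comparisons that do not need it. For AML Dox, centring gave 42 lower and 7 higher and moved the median of all genes from -0.01 to -0.09. For single named members, 4344 values came from alternatives other than the unweighted fit of 18 arrays, the array quality weights among them. Of these, 4156 stayed on the same side of the threshold, 131 lost the call and 57 gained one. Where either fit was called, 0 turned sign. Signs of values called in neither fit were not compared.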
